A study of Sus scrofa with 6 samples.

Results

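Isolated methylated peaks were windows of 1 kb that held many captured fragments while the windows a short way off on both sides held few. They were chosen from the mean of all 6 libraries, with each count of fragments scaled to the total of its library. A window was taken when this mean was 60 to 500 and when the second and the third window on both sides (the 4 outer windows) each had a mean of 5 or less. Of 2136598 windows on chromosomes 1 to 18, 139758 had a mean of 60 to 500, and 947 of these (0.678%) were isolated peaks. Since the rule used the depth of a window and of its outer windows, the high center and the low flanks describe the choice and are not a result.

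The libraries came from the longissimus dorsi muscle of female Jinhua pigs, and were made by MeDIP-seq from 3 middle-aged animals (MA, 7 years old) and 3 Young animals (0.5 years old), 1 library per animal. In MeDIP-seq an antibody against methylated cytosine pulls down sheared DNA, and the ends of the captured fragments are then read. Whole muscle was used, so fibers, vessels, connective tissue and resident cells contributed together. The MA libraries held 38395078 to 44341673 fragments and the Young libraries 34801285 to 43411846. Library MA 3 stood apart: it was the lowest of the 6 in 33.7% of the members and in 30.8% of the other windows with a mean of 60 to 500. It was not low throughout, as it was the highest of the 6 in 18.2% of the members. The summed and median age differences, the counts by age and the spread between libraries are also given without it.

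In mammals DNA methylation lies mainly on the cytosine of CG pairs, and most such pairs outside CpG islands are methylated. The antibody captures a fragment more readily when it carries several methylated cytosines, so a DNA stretch rich in methylated CG pairs gives a peak while a stretch poor in them gives few fragments whether or not it is methylated. A peak therefore reports methylation and local CG density together, and these cannot be told apart by depth alone.

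The members lay on every chromosome tested, from 19 on chromosome 17 to 140 on chromosome 1. Per 10 Mb there were 2.95 on chromosome 17 and 6.08 on chromosome 8, the extremes of the 18 chromosomes. As a share of the windows with a mean of 60 to 500, the members made up 0.299% on chromosome 6 and 1.495% on chromosome 13. Chromosomes 1, 8, 13, 15 and 16 had shares above 1%, and all the others were below that.

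Most members were far from the next one. The median distance to the nearest member was 655 kb, with quartiles of 186 and 1433 kb. There were 28 members in 14 adjacent pairs, and counting each pair once left 933 peaks. One such pair, chr1:148989001-148990000 and chr1:148990001-148991000, had the lowest summed level in the surrounding second to twentieth windows, 0.896 scaled fragments over 38 windows. Its own means were 69.6 and 109. The third lowest surroundings belonged to chr1:279876001-279877000, with a mean of 66.2 in a surrounding total of 1.67 scaled fragments. This member was also part of an adjacent pair, and the window to its left had a mean of 66.9.

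A smaller share of members than of other windows of the same depth lay at chromosome ends. Within 5 Mb of an end lay 124 members (13.1%), against 28.9% of the other windows with a mean of 60 to 500 and 8.43% of all windows. With 2 Mb the shares were 6.97%, 11.8% and 3.37%, and with 10 Mb they were 20.4%, 45.9% and 16.9%. These shares are given as a description, since neighboring windows share their surroundings. The rule also required sparse outer windows of the members, while the other windows could lie in dense surroundings. The lower share near ends is thus not independent of the rule.

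The windows beyond those used by the rule had low medians but a wide range. The median over members was 1.48 and 1.33 scaled fragments in the third window on the left and right, which the rule capped. It was 2.27 in the fourth window on both sides and 4.52 and 3.85 in the twentieth, against 7.33 over all windows. The means over members were higher, with 6.68 and 7.67 in the fourth window and 12.6 and 13.1 in the twentieth. The second to twentieth windows averaged 5 or less in 241 members (25.45%). Neighboring windows share their surroundings, so low values near the capped windows are not independent of the rule. The adjacent windows, which the rule left free, had medians of 5.69 on the left and 6.54 on the right. Both were at 5 or less in 210 members, and at least 1 of them was at 60 or more in 99. In 47 members an adjacent window was higher than the member itself.

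**Figure D1:**
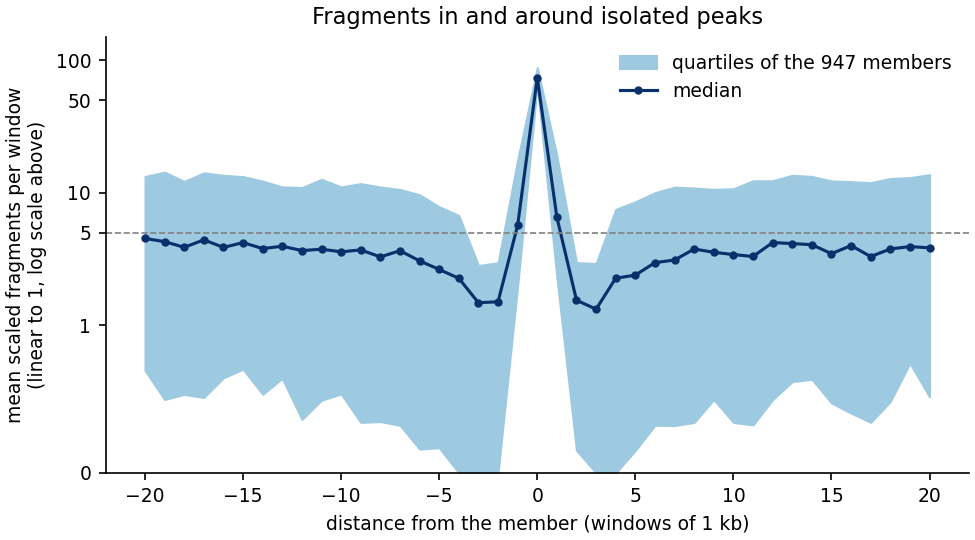
Mean scaled fragments per window over the 6 libraries (vertical axis, linear to 1 and logarithmic above) by distance from the member in windows of 1 kb (horizontal axis), with the median of the 947 members as a line and the quartiles as a band; the dashed line is the limit of 5 for the outer windows. The median falls from 73.7 in the member to 1.51 and 1.55 in the second windows, and returns to 4.52 and 3.85 at the twentieth.

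The surroundings ranged from thin cover to none. In 83 members (8.77%) all 4 outer windows were empty in all 6 libraries, and in 502 members (53.0%) none of the 4 was. For the 83 members with empty outer windows, the unbroken stretch of fragment cover holding the peak had a median length of 1496 bp, with a range of 479 to 3044 bp. The median gap to the next covered base was 6248 bp on the left and 5156 bp on the right. For the 502 members with no empty outer window, the covered stretch had a median of 3648 bp and the gaps had medians of 89.5 and 85 bp. The split by empty outer windows itself limits the covered stretch and widens the gaps, so this contrast describes the split. Over the whole series 11.2% of windows were empty in every library. Whether the empty windows are gaps of the assembly or sequence to which reads could not be placed was not tested.

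The highest summit of a member was mostly narrow. The rule capped the outer windows, which limits the width in advance. The width of the other windows was not measured, so narrowness cannot be called particular to the members. Further summits in the same window were not counted. The width at 50% of the summit depth had a median of 350 bp, measured in bins of 50 bp on the mean of the 6 libraries, and 611 members (64.5%) were at most 350 bp wide. The most frequent width was 300 bp, in 364 members. The mean fragment length of the 6 libraries was 252 to 272 bp. At 50% of its depth the typical highest summit was thus little wider than a single fragment. Only 12 members were 1000 bp wide or more, and the widest was chr9:113787001-113788000 with 1600 bp. With bins of 25 bp the median width was 325 bp.

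**Figure D2:**
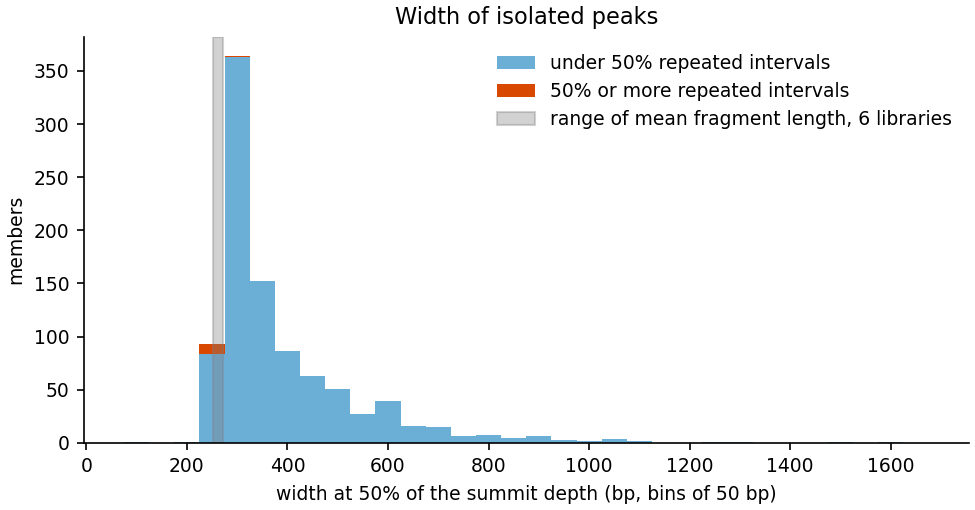
Number of members (vertical axis) by width at 50% of the summit depth in bp (horizontal axis), with members in which 50% or more of the intervals repeat coordinates in a second color, and the range of mean fragment length over the 6 libraries as a gray band. Most members fall in the bins at 300 and 350 bp, just above the band, and 9 of the 10 members in the second color fall at 250 bp.

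In most members the summit was in nearly the same place in different animals. It was sought only inside the window of 1 kb, which limits the spread, and the widest spread was 950 bp. The 6 libraries placed the summit within 50 bp of each other in 502 members (53.0%) and within 100 bp in 656 (69.3%). Each library taken alone gave a median width of 300 or 350 bp. Around the summit, the members with empty outer windows and the other members were compared by mean depth. The 6 libraries gave 51.2 to 59.6 fragments per position at the summit and 6.51 to 10.1 at 500 bp from it in the first, and 46.1 to 57.1 and 5.93 to 7.54 in the second. At 1000 bp the depth was 2.28 to 3.31 and 2.89 to 3.62.

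**Figure D3:**
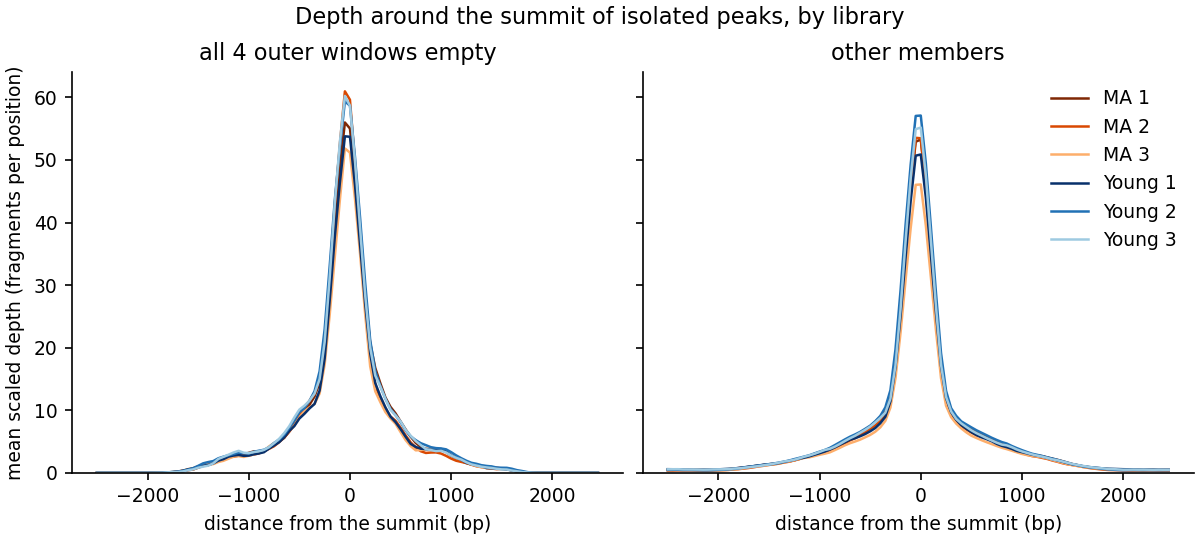
Mean scaled depth in fragments per position (vertical axis) by distance from the summit in bp (horizontal axis), 1 line per library, for the 83 members whose 4 outer windows were all empty (left) and the other members (right). The 6 lines overlie each other on the flanks, and at the summit MA 3 and Young 1 are the lowest lines in both panels.

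The mean length of the fragments in members was close to that elsewhere. The mean in members minus the mean in the other windows with 60 to 500 scaled fragments was -0.206 ± 0.599 bp (SD, n = 6 libraries), and it was above 0 in 2 of 6 libraries (exact sign-flip test, two-sided, p = 0.438). The sign turned to 0.319 bp (p = 0.5, exact sign-flip test) when the comparison windows were those whose outer windows each exceeded 20. The length of 249 bp was the most frequent in every library, with 14.5% to 15.8% of all its fragments. It took 13.7% to 14.8% of the fragments in members against 11.96% to 12.8% in the other windows. The members were higher by 1.64 to 2.20 percentage points in each of the 6 libraries. In the members with under 50% repeated intervals, described next, it was higher by 0.574 to 0.997. In the members with under 2% it took 11.55% to 12.38%, below the other windows in each library. Both limits cut the members but not the other windows, and the leading interval of the most repeated members was 249 bp long. A lower share thus follows in part from the cut, and how many members carry the excess was not tested. Single members departed from the mean length elsewhere. The lowest mean length of any member was 157 bp, at chr1:2939001-2940000, whose mean was 177.5 scaled fragments and in which 16.1% of the intervals repeated earlier coordinates. This window was chosen after its values were seen.

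Intervals with repeated coordinates separated a small set of members from the rest. An interval was counted as repeated when its start and end equaled those of another interval already counted in the same library. The repeated share was 1.96% to 2.49% of the fragments in members, against 0.427% to 0.733% in the other windows of the same mean range. The difference was 1.62 ± 0.116 percentage points (SD, n = 6), above 0 in 6 of 6 libraries. It is given without a test, because the counts that chose the windows include the repeated intervals. Most members did not take part in it. The median share was 0.251% per member, close to the 0.246% of the other windows, and 262 members had no repeated interval.

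Much of the excess came from few windows. At least 2% of the intervals were repeated in 49 members (5.17%) against 1.40% of the other windows, and at least 50% in 10 members (1.06%) against 0.0461%. Without those 10 members the difference was 0.524 percentage points. When members and other windows were both limited to those under 2%, it was 0.0189 percentage points, and ran from -0.0168 to 0.056 over the libraries. Both sets were then cut on the value compared, so a small difference follows from the cut and is no support. When the rule was applied to counts of distinct intervals, 922 of the 947 remained members, including 34 of the 49 but 0 of the 10. Those 10 windows are thus members only because repeated intervals were counted.

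**Figure D4:**
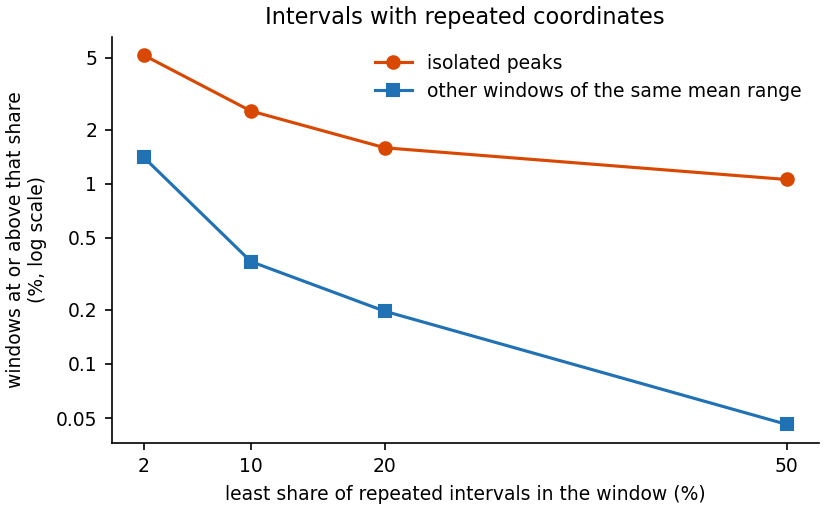
Share of windows in percent (vertical axis, logarithmic) in which the repeated intervals reached 2%, 10%, 20% and 50% (horizontal axis), for the 947 isolated peaks and for the other windows with a mean of 60 to 500. The isolated peaks lie above the other windows at each point, by 5.17% against 1.40% at the left and 1.06% against 0.0461% at the right.

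In the 10 members with the most repeated intervals, 50% or more of the fragments lay on coordinates already counted. At chr11:34175001-34176000, which had a mean of 207 and the highest repeated share (89.7%), each library held 187 to 248 fragments but only 20 to 25 different intervals. The same interval, chr11:34174993-34175241, was the most frequent in 6 of 6 libraries. It was 249 bp long. The MA libraries gave 178, 222 and 199 scaled fragments there, and the Young libraries 226, 208 and 213, so the animals of both ages overlapped.

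The other 9 differed in how far a single interval led. The second, chr14:22603001-22604000, had a mean of 106 and repeated 80.0% of its intervals, and chr14:22603632-22603880 led in all 6 libraries with 38.4% of the fragments. In chr14:116197001-116198000 the leading interval, chr14:116196933-116197181, held 41.6% and was again on top in 6 of 6. In the remaining 7 the interval that led most often was on top in 2 to 5 libraries, and the leading intervals of the libraries held less. They took 8.78% at chr9:65408001-65409000, where a library had 42 to 50 different intervals among 92 to 149 fragments. At chr3:44905001-44906000 they took 11.2%, with 32 to 43 different intervals among 58 to 99 fragments. In all 10 members the leading interval was 249 bp long, and the width at 50% of the summit depth was 250 bp in 9 and 300 bp in 1. The coefficient of variation between libraries was 8.49% to 21.9% in the 10. Repeated coordinates remained in every deposited library, although reads at a same location are described as having been kept once.

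The highest members were of several kinds. The highest mean, 424 scaled fragments, was at chr12:23594001-23595000. The MA libraries gave 431, 450 and 398 there and the Young libraries 461, 392 and 411. These values were close together, with a coefficient of variation of 6.61%, and 30.2% of the intervals were repeated. The window chr12:23590001-23591000, 4 kb away, was also a member, with a mean of 91.5 and a repeated share of 25.7%, and it belongs to the closest pair that is not adjacent. A further member on this chromosome, chr12:23540001-23541000, had a mean of 200.2, and the window to its right had 340.5. The window to the right of chr12:23594001-23595000 had 272. Farther out these members were not in sparse surroundings. The fourth to twentieth windows averaged 69.0 around chr12:23594001-23595000 and 149 around chr12:23540001-23541000, against a median of 8.89 over the members.

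The next highest, chr11:34720001-34721000, was as uneven as the first was even. It gave 442, 341 and 55.2 in MA and 108, 625 and 588 in Young. MA 3 and Young 1 were several times lower than the other 4 libraries, and the ages overlapped. Of the intervals of this member 29.3% were repeated, and the windows next to it had 113.5 and 332.4. At chr3:121696001-121697000, with a mean of 314, the MA libraries gave 445, 222 and 269 and the Young libraries 326, 304 and 318.

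Most members were present at similar depth in each animal. The highest library was at most 2 times the lowest in 780 members (82.4%), and the coefficient of variation had a median of 15.2%, against 14.9% in the other windows of the same mean range. No member was empty in any library, and the smallest number of fragments in a library was 9. At chr7:102439001-102440000, the most even member, the MA libraries gave 72.4, 71.2 and 71.6 and the Young libraries 74.8, 69.9 and 77.4. At chr10:45845001-45846000 and chr1:34991001-34992000 the coefficients of variation were 3.88% and 4.01%.

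Uneven members had mostly 1 pattern. In 58 members (6.12%) the highest library was over 3 times the lowest, against 5.97% of the other windows. In 49 of the 58 the lowest library was MA 3, and in 40 of these 49 Young 1 was the second lowest. The other windows shared this: of those over 3 times, 93.0% were lowest in MA 3. Leaving out MA 3, 18 members were over 3 times, and the median coefficient of variation was 13.4% against 13.3% in the other windows. MA 3 and Young 1 are of different ages, so this pattern crosses the age groups.

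At chr1:153533001-153534000, the member with the highest coefficient of variation (77.1%), the MA libraries gave 97.4, 71.2 and 14.3 and the Young libraries 20.98, 171 and 179. The member chr7:40890001-40891000, chosen after its values were seen, had the widest range between libraries, with 164, 131 and 9.21 in MA and 46.5, 170 and 176 in Young. In both of these members MA 3 was lowest and Young 1 second lowest.

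A different pattern appeared on chromosome 10. At chr10:19441001-19442000 the MA libraries gave 11.6, 152 and 32.7 and the Young libraries 57.5, 78.2 and 62.6. At chr10:19547001-19548000 they gave 32.2, 143 and 24.6, and 30.1, 84.5 and 68.3. MA 2 was highest in both. Another member nearby, chr10:19603001-19604000, was chosen after its values were seen and gave 27.7, 137 and 72.6 in MA and 48.4, 53.2 and 46.7 in Young. The neighboring member chr10:19705001-19706000 did not share the pattern, with 67.9, 72.2 and 65.5, and 94.0, 78.2 and 100.1.

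Members near chromosome ends varied more between libraries than the rest, with a median coefficient of variation of 17.8% against 15.0%. Without MA 3 the medians were 14.1% and 13.4%. Among the 124 within 5 Mb of an end, the median scaled count was 86.1 to 88.4 in MA 1, MA 2, Young 2 and Young 3, but 71.6 in MA 3 and 73.0 in Young 1. Among the 823 members farther inside, the 6 medians ran from 71.6 to 79.3. MA 3 was the lowest library in 47.6% of the members near ends and in 31.6% of the others. Near ends the members were also wider, with a median of 400 bp against 300 bp, and all 4 outer windows were empty in 21.8% of them against 6.80%. These differences are a description.

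Age was compared next, to ask whether methylation of these isolated peaks differs between middle-aged and young muscle. The members together took 0.191% ± 0.0124 of all fragments in MA and 0.198% ± 0.00974 in Young (SD, n = 3 each). Their summed scaled fragments were 77708, 79352 and 70171 in MA and 74039, 81614 and 79099 in Young. The groups overlapped (exact permutation test, two-sided, p = 0.6), and 3 libraries against 3 cannot give a p below 0.1. Without MA 3 the log2 ratio of the group means turned from -0.05 to 0.01.

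For single windows, limma was applied to log2(scaled count + 1) in the 909224 windows with a mean of at least 10, all 947 members among them. With an adjusted p below 0.01, 0 of 947 members differed by age, where 18 of all windows (0.00198%) did, 14 of them higher in MA (0.00154%) and 4 lower (0.00044%). With an adjusted p below 0.05 the count was again 0 of 947 against 163 of all (0.0179%). At shares this small, a count of 0 among 947 windows does not set the members apart from the rest. The unadjusted p was below 0.05 in 54 members (5.70%) against 7.35% of all windows, and without MA 3 in 53 members (5.60%) against 7.48%. With limma's voom weights 0 of all 909224 windows passed either threshold, and 62 members (6.55%) were below an unadjusted 0.05 against 7.17% of all windows.

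The libraries of both ages did not overlap in 120 members (12.7%), against 13.4% of all windows. They were higher in MA in 55 members (5.81%, all windows 7.51%) and lower in MA in 65 (6.86%, all windows 5.87%). With only 5 libraries, MA 3 left out, the groups were apart in 207 members (21.9%), 99 higher and 108 lower, against 23.9% of all windows. The median log2 fold change of MA over Young was -0.05 over the members and 0.02 over all windows tested, and 402 members were above 0. Over the windows with a mean of 60 to 500, members included, it was -0.007. Over the members it was 0.01, with 492 members above 0, when MA 3 was left out. The median was then 0.006 over all windows tested and 0.04 over the windows with a mean of 60 to 500. The standard error of a member's log2 fold change had a median of 0.185, and an absolute change of at least 1 was reached by 5 members. The shares of all windows above 0, or with so large a change, were not computed. The counts of members above 0 or with such a change thus cannot be read as few or many.

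The 3 members with the smallest unadjusted p in each direction are given as values, as none passed the threshold. At chr5:73603001-73604000 the MA libraries gave 37.5, 49.5 and 43.0 and the Young libraries 98.5, 80.3 and 81.9. All MA values were below all Young values, and the log2 fold change was -0.99 ± 0.182 (SE; limma, Benjamini-Hochberg adjusted p = 0.172). At chr8:110416001-110417000 they gave 59.0, 48.5 and 44.0 against 83.9, 92.8 and 87.6, which also did not overlap (log2 fold change -0.80; limma adjusted p = 0.28). At chr15:12471001-12472000 they gave 48.2, 48.5 and 27.6 against 85.8, 98.1 and 71.7, again apart (log2 fold change -1.05; limma adjusted p = 0.302).

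In the other direction, chr14:138733001-138734000 gave 77.7, 111 and 122 in MA and 27.4, 40.7 and 59.2 in Young. The lowest MA value was above the highest Young value, and the log2 fold change was 1.31 ± 0.269 (SE; limma adjusted p = 0.239). Its 4 outer windows were empty in all libraries, and 0.92% of its intervals were repeated. Its width was 500 bp in bins of 50 bp and 350 bp in bins of 25 bp, and ran from 250 to 1050 bp over the single libraries. At chr1:209502001-209503000 the values were 76.8, 69.1 and 79.8 against 41.1, 46.9 and 48.9 (log2 fold change 0.71; limma adjusted p = 0.364). At chr1:93601001-93602000 they were 90.2, 85.6 and 100.3 against 51.1, 59.5 and 60.3 (log2 fold change 0.68; limma adjusted p = 0.365).

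**Figure D5:**
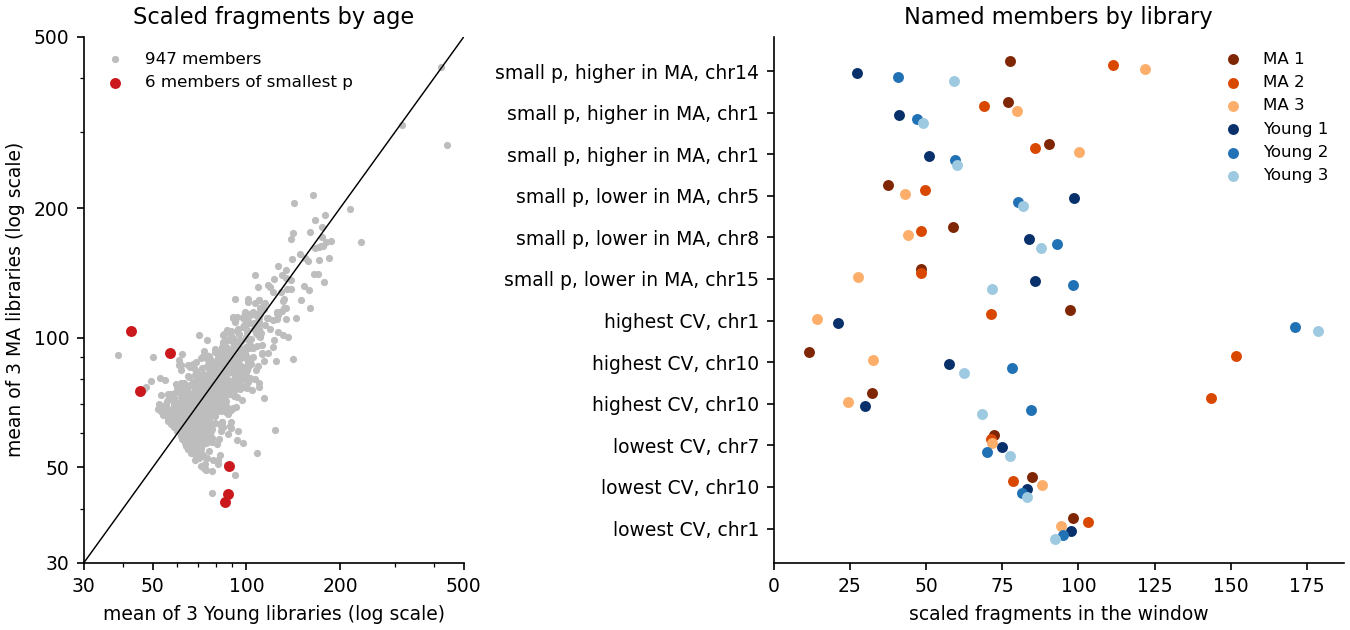
Left, mean scaled fragments of the 3 MA libraries (vertical axis) against those of the 3 Young libraries (horizontal axis), both logarithmic, for the 947 members, with the 6 of smallest unadjusted p in red and a line of equality. Right, scaled fragments per library (horizontal axis) for these 6 members and the 3 with the highest and lowest coefficient of variation (CV), where the 6 are split by age and the highest CV rows split MA 3, Young 1 or MA 2 from the rest.

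Annotations could be placed at 2 members, from the study's list of age-associated regions. The list is held here only in part (its first 1997 rows), so this number is not a count over the whole list. The share of all windows that overlap it was not computed, so the number cannot be read as few or many. The member chr14:138733001-138734000 overlapped a listed region that the list assigns to an exon of ENSSSCG00000010714 and an intron of ENSSSCG00000010715. The member chr11:8596001-8597000 overlapped a listed region in an intron of PDS5B, which encodes a protein that binds the cohesin ring and regulates its release from DNA. It gave 42.0, 79.4 and 40.9 in MA and 68.4, 72.0 and 58.0 in Young, which overlapped (log2 fold change -0.35; limma adjusted p = 0.794). The list was drawn up on these same animals, so its regions are not independent of the values given here.

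The bounds of the rule cut through a continuous range. The members just inside the lower bound of the mean, chr5:72636001-72637000 and chr10:41153001-41154000, each had 60.02, and the windows just below it, chr11:12324001-12325000 and chr15:55596001-55597000, had 59.99 and 59.95. At the limit of 5 for the outer windows, the highest outer window was 4.9997 in chr14:85472001-85473000, just inside, and 5.0002 in chr5:35943001-35944000, just outside. Moving the windows by 500 bp gave 944 isolated peaks, which took in 426 of the 947.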

How the data were processed

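MeDIP-seq fragments were available for 3 MA and 3 Young pigs, grouped by the sample labels. The authors aligned paired reads to the pig assembly Sscrofa9.2 with SOAP2, and deposited 1 interval (chromosome, start, end) per fragment, with no count, score or normalization. All other values were computed here. The midpoint of a fragment assigned it to a window of 1 kb, and counts were scaled to library totals. Repeated intervals were kept. Depth was averaged in bins of 50 bp. The age test, on windows whose mean reached 10, used limma 3.58.1 (R 4.3.3, trend, pseudocount 1, Benjamini-Hochberg adjustment, threshold 0.01). Exact tests enumerated all regroupings or sign changes. Other steps used Python 3.11.15 and numpy 2.4.6, and figures matplotlib 3.10.9.

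In 908396 simulated windows, limma recovered 199 of 200 windows with a 4-fold and 36 of 200 with a 2-fold change, with 0 false calls, at an assumed coefficient of variation of 18.3% beyond counting. The members, lists and tests were chosen with earlier results of these data known. Named members were the 3 of smallest unadjusted p in each direction, the 5 highest means, the 3 lowest surroundings, members in listed regions, the 3 highest and 3 lowest coefficients of variation, the bounds and the closest pairs. Alternatives covered scaling, bounds, window grid, repeated intervals, pseudocount, filter, threshold, replicate number, comparison windows, bin size and each library left out. Sequence, CG content, repeats and gene annotation were not analysed here, because no genome of that build was used.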

Additional observations from a re-analysis of the deposited data

How the results depend on the processing

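The number of members, 947, was 423 with an outer limit of 3, 3349 with 10, 2887 with a mean of 40 to 500 and 128 with 100 to 500, which the rule itself fixes. It was 953 with TMM scaling, 927 with distinct intervals (922 shared), 944 with a shifted grid and 903 to 987 without 1 library. In each of the 16 alternatives of the age test, a threshold of 0.05 on all libraries among them, 0 members passed. The share of all windows that passed ran from 0% with a mean of at least 30 to 0.0213% without MA replicate 3. At shares this small, 0 of 947 is not a result about the members. With both that threshold and MA replicate 2 left out, 1 member passed, among 122 of 912519 windows (0.0134%). The median log2 fold change over the members was -0.07 with TMM scaling and -0.06 to 0.01 without 1 library. The log2 ratio of summed fragments by age was -0.07 with TMM scaling and 0.0051 without MA replicate 3. It ran from -0.0853 to 0.0051 over the libraries left out. The 7 members whose age difference was followed kept their direction and stayed above the threshold throughout. All but chr11:8596001-8597000 were chosen for a small unadjusted p in these same libraries. The kept direction of those chosen so was nearly fixed in advance and is no support. The replicate block, with the replicate number as a term, gave 0 members and 0 of all 909224 windows past the threshold, and a log2 ratio of summed fragments of -0.05. The deviations of same-numbered libraries had correlations of -0.217, 0.0756 and -0.19 over 909224 windows, and those of MA 3 and Young 1 had 0.302. Whether same-numbered libraries share more than a number was not tested. The difference in fragment length was 0.319 bp against dense comparison windows, 0.0857 bp without intervals of the most frequent length and 0.0202 bp in members under 50% repeated. The excess of repeated intervals was 1.59 to 1.64 percentage points without 1 library, again given without a test. With the windows chosen on distinct intervals it was 14.75 percentage points, but 3 windows that came in by that choice held 94.7% of the repeated intervals, and over the 922 members shared by both choices it was 0.352. The share near ends was 6.97% with 2 Mb and 20.4% with 10 Mb. The comparisons with members under 50% repeated and with distinct intervals were chosen after seeing the data. In each case above the cause was not tested.

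The simulation assumed a coefficient of variation of 18.3% beyond counting, while the members' own median, counting included, was 15.2%. It therefore does not give the recovery in the members. Membership of single windows depended on where the grid began.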
